A study of Rattus norvegicus with 6 samples.

Results

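The genes of the mitochondrial carrier family (Slc25a) and of the translocases that import proteins into mitochondria (Timm and Tomm) were followed in AR42J cells, which grow from a tumour of the enzyme-secreting (acinar) tissue of the rat pancreas. Members were the genes on the Affymetrix Rat 230A array whose platform symbol begins with Slc25a, Timm or Tomm, each represented by the brightest of its probe sets (mean log2 signal, 6 arrays). The rule found 53 genes among the 10411 genes named on the array, 30 Slc25a carriers and 23 Timm and Tomm genes, measured by 60 probe sets. A further 3 probe sets list several genes, at least 1 of them with such a symbol, and were left out. Of the 53 members, 45 were bright enough to enter the test and 8 were not, so counts below describe the 45 and do not cover the family. Treated cultures were AR42J cells kept for 48 h with 100 nM dexamethasone, a synthetic glucocorticoid (n = 3), and control cultures were AR42J cells kept for the same 48 h without it (n = 3). All 6 cultures came from passage 29 stocks and had been plated for 24 h in medium with 20% serum before the change to medium with 5% serum. The study thus covers 1 cell line, 1 dose and 1 time, and the comparison asks which transcripts differ after exposure to the glucocorticoid.

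Slc25a proteins sit mainly in the mitochondrial inner membrane and exchange nucleotides, phosphate, amino acids, carboxylates and cofactors between the cytosol and the matrix. Nearly all mitochondrial proteins are made in the cytosol: they cross the outer membrane through the TOM complex, and proteins with a cleavable presequence then pass the TIM23 complex, driven by a motor on its matrix side. Carriers themselves take another route, escorted across the intermembrane space by small Tim chaperones and inserted by the TIM22 complex. Acinar cells make large amounts of secreted enzyme, a load that draws on mitochondrial ATP.

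Values are the deposited MAS5 signals (linear units, relative to the total of the array), and changes are log2 differences, dexamethasone minus control, ± SE from limma with replicate number as a block; whether cultures with the same number were handled together is not shown by the data. A change was called at a Benjamini-Hochberg adjusted p of 0.05 over all 9520 probe sets tested. Precision is limited by having 3 arrays in each group. A background level was set for each array from 27 control probe sets for Bacillus genes, and 68.3% to 79.5% of probe sets exceeded it; the level was 83.7 to 115.9 on the dexamethasone arrays and 51.7 to 97.3 on the control arrays. The cells carried acinar markers: 10 of 11 listed were on the array and all 10 were above background on every array, with a summed signal of 117670 to 139480 in dexamethasone cultures and 82068 to 103000 in control cultures. The list was uneven: 6 were called higher, 0 lower and 4 not. Prss1 (mean 15481 with dexamethasone, 726 in controls) and Cela2a (15484 and 4450) rose most, while Cpa1 was not called (17049 and 19716). Of 6 islet hormone and islet factor genes, 1 was above background on every array and 2 were at background on every array (summed signal 439.2 to 545 with dexamethasone, 361 to 488 in controls). Of 8 stromal, endothelial and immune markers, 4 were above background on every array and 1 (Ptprc, a leukocyte marker) on none (911 to 1078 with dexamethasone, 718 to 806 in controls). The 2 duct markers on the array summed to 573 to 1950 with dexamethasone and 2710 to 3797 in controls, and 4 hepatocyte markers to 3334 to 21940 with dexamethasone and 1029 to 3309 in controls. Of the hepatocyte markers 3 were called higher, and Alb was too dim to be tested (mean 109 with dexamethasone, 96.1 in controls). Of 3 brown fat and muscle markers, 1 was above background on every array and 1 at background on every array (291 to 452 with dexamethasone, 235 to 299 in controls). The part of these shifts in the results below was not tested. In bulk RNA of a culture, fewer cells of a kind and less RNA per cell cannot be told apart.

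Among the 45 members tested, 12 rose with dexamethasone, 5 fell and 28 did not pass the threshold. The share called, 37.8%, lay beside 38.4% of all 7051 genes tested (17.0% higher, 21.4% lower) and 37.1% of all probe sets, so being called was about as common in the family as on the array. With scaling to the array's hybridization controls the split was 6 higher and 7 lower, against 8.84% and 34.5% of all genes. Of 24 carriers tested, 9 rose and 1 fell (median change 0.34), and of 21 Timm and Tomm genes, 3 rose and 4 fell (median 0.02), beside a median of -0.04 for all genes tested; the difference between the branches was not tested. In 18 of the 45 members all 3 dexamethasone signals lay above all 3 control signals and in 7 all lay below, against 22.9% and 28.1% of all genes tested (51.0% either way). Leaving out replicate 1 reduced the calls to 6 higher and 2 lower among the members (17.8%), while 26.0% of all probe sets were then called. In fits without the block, leaving out single arrays gave 8 higher and 3 lower without dexamethasone 1, and likewise 8 and 3 without control 3. That was 24.4% of the members each time, beside 31.5% and 25.9% of all probe sets. Dexamethasone 3 had the lowest treated signal of Slc25a1 and Slc25a10 and the highest of Slc25a34 and Timm21. Without dexamethasone 3, in a fit without the block, 14 members rose and 6 fell (44.4%, beside 37.1% of all probe sets).

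**Figure D1:**
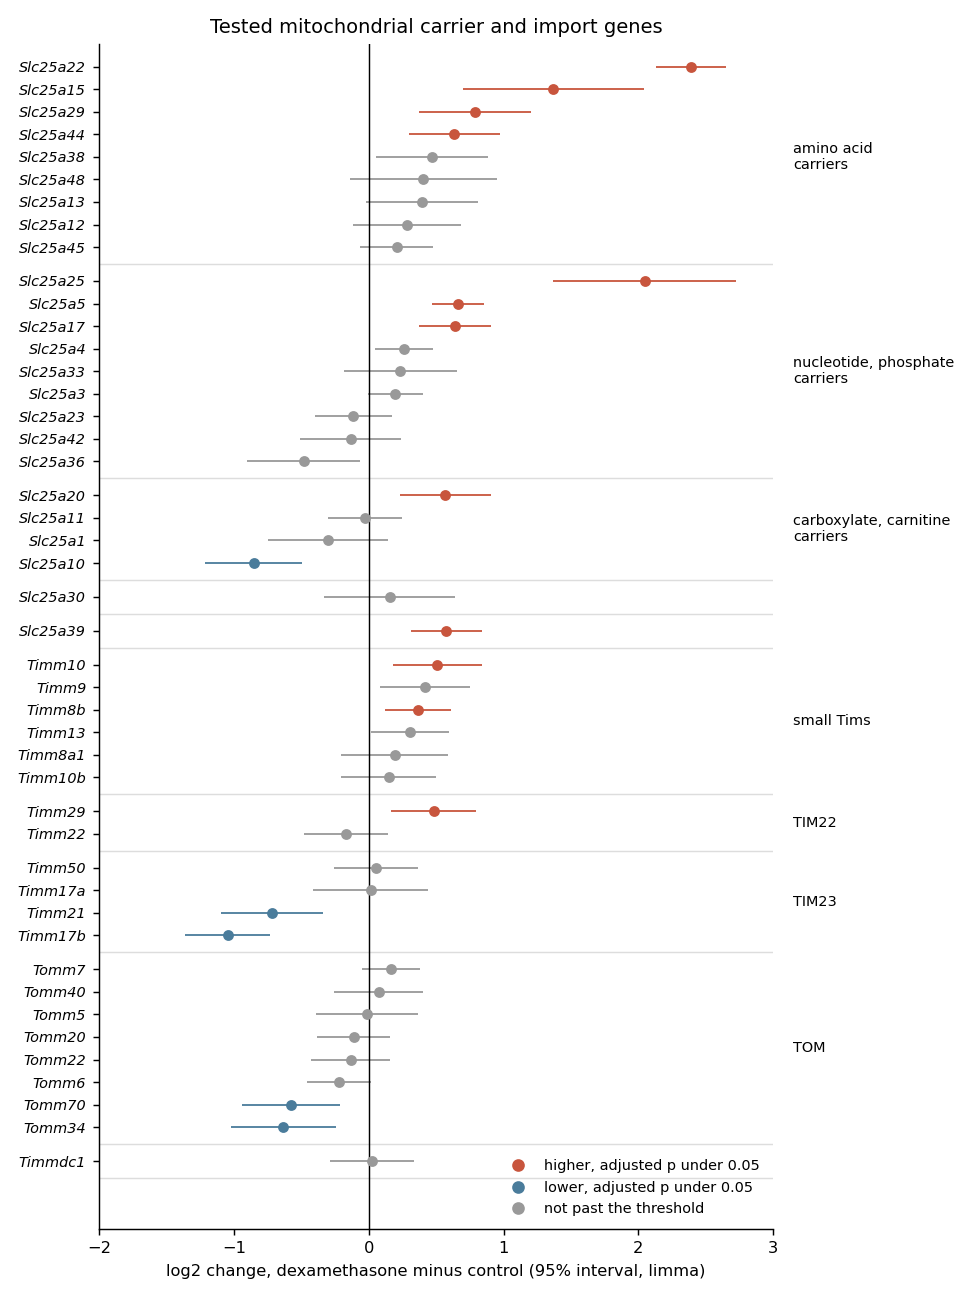
Log2 change, dexamethasone minus control, for the 45 tested members (horizontal axis, limma estimate with its 95% interval), grouped by substrate or complex from top to bottom. The 2 highest estimates are Slc25a22 (2.39) and Slc25a25 (2.05) and the lowest is Timm17b (-1.04), and all 9 amino acid carriers and all 6 small Tims lie to the right of 0 with the deposited scaling (8 of 9 and 4 of 6 with hybridization control scaling).

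The stretches of 250 bases before the annotated start are shown for the 2 tested members with the highest fitted change and for the one with the lowest, because these had the largest changes in each direction among the 45 tested; Slc25a34, too dim to be tested, is described further on. They are RefSeq sequences of build GRCr8, written 5′ to 3′ on the strand of the gene. They were read from chr1:205965878-205966127 (minus strand) for Slc25a22, chr3:36116582-36116831 (minus strand) for Slc25a25 and chrX:17275341-17275590 (minus strand) for Timm17b. Capitals mark matches to any of 8 motifs searched on both strands: a cAMP response element and an inverted CCAAT box in Slc25a25, a pair of CCAAT boxes in Timm17b, and no match in Slc25a22.
Slc25a22: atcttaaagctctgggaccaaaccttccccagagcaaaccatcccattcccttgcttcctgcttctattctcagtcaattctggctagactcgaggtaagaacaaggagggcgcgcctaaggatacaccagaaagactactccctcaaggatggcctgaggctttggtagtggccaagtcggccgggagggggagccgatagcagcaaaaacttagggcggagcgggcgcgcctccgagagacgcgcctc
Slc25a25: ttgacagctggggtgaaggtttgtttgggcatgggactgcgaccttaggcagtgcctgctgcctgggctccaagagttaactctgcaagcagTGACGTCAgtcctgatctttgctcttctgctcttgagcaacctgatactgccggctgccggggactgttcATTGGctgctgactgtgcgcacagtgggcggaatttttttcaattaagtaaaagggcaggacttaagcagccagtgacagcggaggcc
Timm17b: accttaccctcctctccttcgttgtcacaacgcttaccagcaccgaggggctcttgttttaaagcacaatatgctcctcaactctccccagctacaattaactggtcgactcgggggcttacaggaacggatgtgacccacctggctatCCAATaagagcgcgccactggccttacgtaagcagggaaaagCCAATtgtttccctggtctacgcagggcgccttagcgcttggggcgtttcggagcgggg
The Slc25a25 window holds TGACGTCA from 158 to 151 bases before the start.

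A promoter was in the table for 49 of the 53 members, and the shares refer to windows of the same length. Member shares count genes, a gene counting once if any of its annotated starts had the motif. The shares beside them count single windows, so the units differ where a gene has several starts. The glucocorticoid response element was in 0 of 49 members and in 0.373% of 33469 windows of the table. The cAMP response element TGACGTCA was in 2 members (4.08%, Slc25a25 and Slc25a33) and 1.59% of all windows. ACCGGAAG, a binding motif of ETS factors such as NRF-2, was in 6 members (12.2%), among them Tomm20, Tomm70 and Timm8b, and in 2.02% of all windows. The NRF-1 motif was in 3 (6.12%, Timm21, Tomm20 and Tomm7), and in 3.75% of all. The E-box CACGTG was in 4 members (8.16%) and 5.59% of all windows, and the YY1 motif in 1 (2.04%) and 0.849%. TGATGNAA (ATF4 composite) was in 2 members (4.08%) and 3.4% of all windows, and CCAAT in 27 (55.1%) and 34.0%. None of the matches in members overlapped a match of another motif. The motifs were chosen with the changes known, the table's windows include genes of every kind, and a match is a run of letters, not a measured site.

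Among carriers of amino acids the highest changes were in glutamate and ornithine transport. Of 9 tested in the group, 4 rose, 0 fell and 5 did not pass (44.4% called, against 38.4% of all genes tested). Limma's unadjusted p was under 0.05 for 5 higher and 0 lower, against 21.1% higher and 26.4% lower of all genes. Slc25a22, a glutamate carrier that moves glutamate with a proton into the matrix, gave signals of 4762, 3822 and 4383 in dexamethasone cultures 1 to 3, against 895, 781 and 792 in control cultures 1 to 3. Every treated culture was far above every control, and the 3 differences between cultures of the same number lay between 2.29 and 2.47. The change was 2.39 ± 0.11 (5.24-fold, adjusted p = 1.93e-06), and the call was kept in all 18 alternative settings tried. Slc25a15, the ornithine carrier that links the cytosolic and matrix steps of the urea cycle, had 999, 2628 and 1874 in dexamethasone cultures 1 to 3, against 798, 553 and 647 in control cultures 1 to 3. Its groups did not overlap, but dexamethasone 1 lay close to the controls. The change was 1.37 ± 0.29 (adjusted p = 0.00693), with differences of 0.32, 2.25 and 1.53 between cultures numbered 1, 2 and 3. Without replicate 2 it was 0.93, adjusted p = 0.0596 and the call was lost.

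Slc25a29, a carrier of basic amino acids, had 559, 344 and 559.5 in dexamethasone cultures 1 to 3, against 315, 259 and 257 in control cultures 1 to 3. All treated cultures were above all controls, with dexamethasone 2 the lowest of the treated, and the change was 0.79 ± 0.18 (adjusted p = 0.0098). Its call was lost without replicate 1 (0.77, adjusted p = 0.0506) and, without the block, without dexamethasone 1 (0.67, adjusted p = 0.058) or control 3 (0.73, adjusted p = 0.056). Slc25a44, which carries branched-chain amino acids, had 727, 489 and 750.4 in dexamethasone cultures 1 to 3, against 423, 361 and 466 in control cultures 1 to 3. The groups again did not overlap (change 0.64 ± 0.15, adjusted p = 0.0102) and dexamethasone 2 was the treated culture nearest the controls. The call was lost without replicate 1 (0.56, adjusted p = 0.0583) and, without the block, when dexamethasone 1, dexamethasone 3, control 1 or control 2 was left out (adjusted p = 0.0838, 0.064, 0.0648 and 0.086).

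The aspartate-glutamate carriers of the malate-aspartate shuttle did not pass: Slc25a13 had a change of 0.40 ± 0.18 (adjusted p = 0.122) and Slc25a12 of 0.28 ± 0.18 (adjusted p = 0.241). Slc25a13 passed without replicate 3 (0.57, adjusted p = 0.0134) and without dexamethasone 3 (0.51, adjusted p = 0.0394). The differences left without replicate 3 were unlike, at 0.19 and 0.95. Slc25a38, a glycine carrier needed for haem synthesis and named after its values were seen, did not pass (0.47 ± 0.18, adjusted p = 0.076), but did with quantile normalization (0.55, adjusted p = 0.0377) and 75th percentile centring (0.59, adjusted p = 0.0334). The other tested genes put in the group, Slc25a45 and Slc25a48, whose substrates are less settled, had changes of 0.21 and 0.40 and did not pass.

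**Figure D2:**
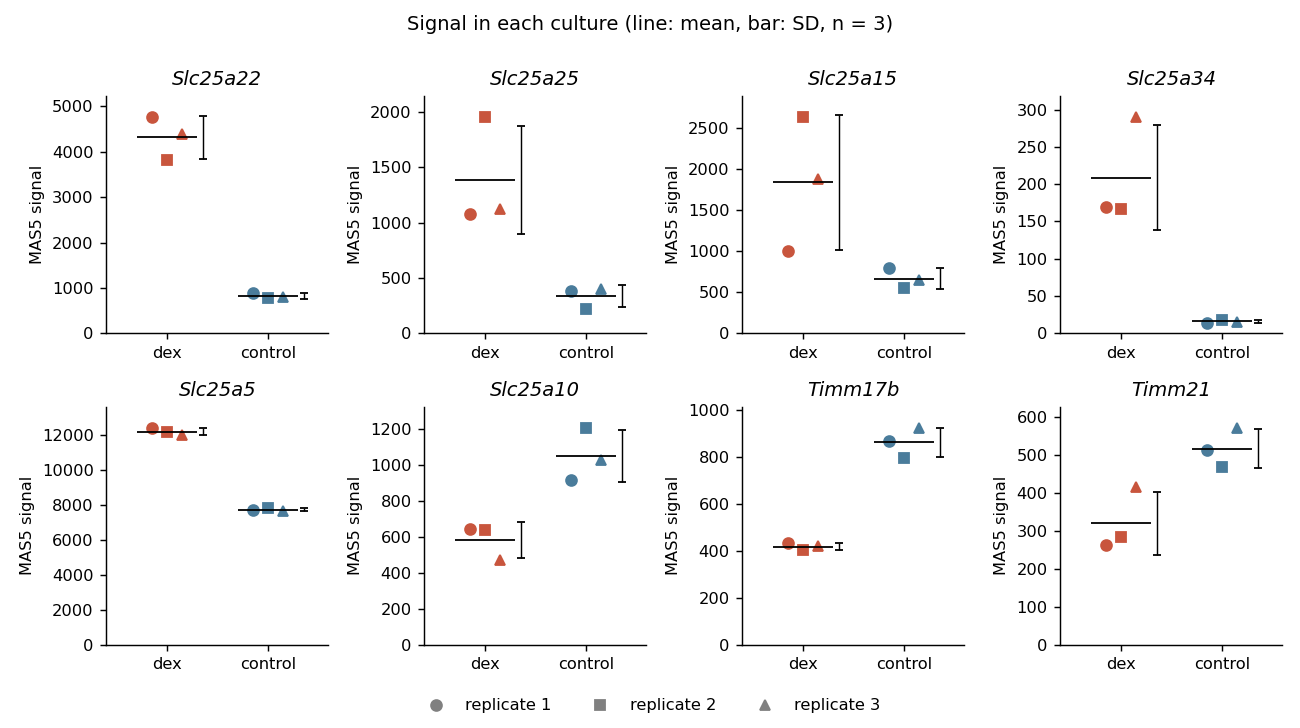
MAS5 signal (vertical axis, linear from 0) in each culture for 8 members, dexamethasone left and control right in each panel, with symbols for the replicate number, a line at the mean and a bar of 1 SD. The 8 members were picked with their changes known, and their groups overlap in none of the panels (51.0% of all genes tested did not overlap). Slc25a34 lies between 14.2 and 18.0 in controls, below the background level of every control array.

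Among carriers of nucleotides and phosphate the ATP-Mg carrier Slc25a25 and the ATP exporter Slc25a5 rose. Of 9 tested in the group, 3 rose, 0 fell and 6 did not pass (33.3% called, against 38.4% of all genes tested). At an unadjusted limma p under 0.05, 4 were higher and 1 lower (21.1% and 26.4% of all genes). Slc25a25, which exchanges ATP-Mg for phosphate and is regulated by calcium through a calmodulin-like domain, had 1079.6, 1952 and 1126 in dexamethasone cultures 1 to 3, against 385, 218 and 402 in control cultures 1 to 3. Every treated culture was far above every control, and the difference was 3.16 between the cultures numbered 2 and 1.49 for each other number. The change was 2.05 ± 0.30 (4.13-fold, adjusted p = 0.000902), and 1.49, adjusted p = 0.00215 without replicate 2. Slc25a5, the adenine nucleotide translocase ANT2 that exports ATP from the matrix, had 12393, 12205 and 12039.6 in dexamethasone cultures 1 to 3, against 7721, 7819 and 7658 in control cultures 1 to 3. The cultures of each group lay close together and the groups were far apart (change 0.66 ± 0.09, 1.58-fold, adjusted p = 0.000447). Whether signals this bright are near a ceiling of the array was not tested. Slc25a17, a carrier of nucleotides and cofactors that lies in the membrane of peroxisomes and not of mitochondria, had 1697, 1756 and 1579 in dexamethasone cultures 1 to 3, against 1070.1, 1133 and 1023 in control cultures 1 to 3. Differences between cultures of the same number were 0.63 to 0.67, and the change was 0.64 ± 0.12 (adjusted p = 0.00323). The calls of Slc25a25, Slc25a5 and Slc25a17 were kept in all 18 alternative settings.

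Slc25a4, the translocase isoform ANT1 typical of heart and muscle, had a change of 0.26 ± 0.09 that missed the threshold (adjusted p = 0.0562), although its treated signals of 9717, 8982 and 9314 in dexamethasone cultures 1 to 3 all lay above 7696, 8301 and 7391 in control cultures 1 to 3. It passed without replicate 2 (0.34, adjusted p = 0.0371), without control 2 (0.31, adjusted p = 0.0167), without the block (0.26, adjusted p = 0.0383), with the stricter filter (adjusted p = 0.0479) and with 75th percentile centring (0.39, adjusted p = 0.0133). Slc25a3, the phosphate carrier that feeds ATP synthase, averaged 13036 ± 791 with dexamethasone and 11372 ± 369.9 in controls (SD, n = 3 each; change 0.20 ± 0.09, adjusted p = 0.121). Its estimate was past the threshold with 75th percentile centring (0.32, adjusted p = 0.0243) and without replicate 2 (0.27, adjusted p = 0.046), and was negative with quantile normalization (-0.09). Slc25a33 and Slc25a36 carry pyrimidine nucleotides. Slc25a33 did not pass (0.23 ± 0.18, adjusted p = 0.36). Slc25a36, named after its values were seen, did not pass either (-0.48 ± 0.18, adjusted p = 0.0694), but was lower without replicate 3 (-0.68, adjusted p = 0.00288), without dexamethasone 3 (-0.72, adjusted p = 0.00787) and with hybridization control scaling (-0.73, adjusted p = 0.021). Its differences between cultures of the same number were wide apart, at -1.05, -0.30 and -0.09. Slc25a23, a relative of Slc25a25 also named after its values were seen, had a change of -0.11 ± 0.13 (adjusted p = 0.526), and the remaining gene of the group, the coenzyme A carrier Slc25a42, one of -0.13.

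Of 4 carboxylate and acylcarnitine carriers tested, 1 rose, 1 fell and 2 did not pass, against 17.0% higher and 21.4% lower of all genes tested. Whether these 4 differ as a class from all genes was not tested. Slc25a10, which exchanges malate and succinate for phosphate, had 645, 634 and 468 in dexamethasone cultures 1 to 3, against 916, 1202 and 1026 in control cultures 1 to 3. Each treated culture was below each control, dexamethasone 3 lowest of all, and the change was -0.85 ± 0.16 (adjusted p = 0.00318), called in all 18 alternative settings. Slc25a20, which brings acylcarnitines into the matrix for fatty acid oxidation, had 474, 536 and 528 in dexamethasone cultures 1 to 3, against 327, 370.4 and 338 in control cultures 1 to 3. The groups were separate and the differences by replicate number similar (0.53 to 0.64), with a change of 0.57 ± 0.15 (adjusted p = 0.0165). Its call was lost when any 1 replicate number was left out (adjusted p = 0.0535, 0.0533 and 0.0722 without replicate 1, 2 and 3).

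The citrate carrier Slc25a1, which supplies cytosolic acetyl units for lipid synthesis, had 1681, 1809 and 808 in dexamethasone cultures 1 to 3, against 1701, 1718 and 1572 in control cultures 1 to 3. Only dexamethasone 3 was low, and the change did not pass (-0.30 ± 0.20, adjusted p = 0.264); without replicate 3 it was 0.03. The oxoglutarate carrier Slc25a11, of the malate-aspartate shuttle, was nearly level (-0.03 ± 0.12, adjusted p = 0.884, 95% interval -0.30 to 0.25). Slc25a39, a carrier needed for mitochondrial glutathione import, had 4765, 4109.5 and 3569.5 in dexamethasone cultures 1 to 3, against 2710.4, 2950.2 and 2641 in control cultures 1 to 3. Each treated culture exceeded each control, and the change was 0.58 ± 0.12 (adjusted p = 0.005). The uncoupling protein-like Slc25a30 did not pass (0.16, adjusted p = 0.606).

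Small Tims and the TIM22 complex deliver and insert carriers. Among 8 tested, 3 rose and 0 fell (17.0% and 21.4% of all genes tested). Timm10, which forms a chaperone ring with Timm9, had 1532, 1225 and 1157 in dexamethasone cultures 1 to 3, against 867, 1015 and 859 in control cultures 1 to 3. All treated signals were above all controls, dexamethasone 1 highest, with a change of 0.51 ± 0.15 (adjusted p = 0.0245). The call was lost without replicate 1 (0.35, adjusted p = 0.135) and, without the block, without dexamethasone 1, control 1 or control 3 (adjusted p = 0.0623, 0.0764 and 0.0818). Its partner Timm9 missed the threshold (0.42 ± 0.15, adjusted p = 0.0514), with 835, 758 and 764 in dexamethasone cultures 1 to 3, against 535, 658 and 574 in control cultures 1 to 3. These groups did not overlap either, and Timm9 passed in 8 of 18 alternatives, among them the fit without the block (0.42, adjusted p = 0.0328), without dexamethasone 3 (0.44, adjusted p = 0.0419) and without control 2 (0.50, adjusted p = 0.0281).

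Timm8b, which pairs with Timm13 in a ring that guides a subset of inner-membrane proteins, had 2788, 2664 and 2767 in dexamethasone cultures 1 to 3, against 2223, 2051 and 2103 in control cultures 1 to 3. The groups were clearly apart but the size was small (0.37 ± 0.11, adjusted p = 0.0267). Its call was lost without replicate 1, 2 or 3 (adjusted p = 0.0663, 0.0913 and 0.111), without control 3 (0.0708), with no intensity trend (0.0743) and with quantile normalization (0.0661). Timm13 did not pass (0.31 ± 0.13, adjusted p = 0.0921), but did without dexamethasone 3 (0.38, adjusted p = 0.0367), without control 2 (0.39, adjusted p = 0.0475) and with 75th percentile centring (0.43, adjusted p = 0.0312). The remaining small Tims, Timm8a1 and Timm10b, had changes of 0.19 and 0.15 and did not pass, and the other probe set of Timm8a1 had 0.38 (adjusted p = 0.108). Estimates were above 0 in 6 of 6 small Tims, 2 of them called, beside 46.7% of all genes above 0; with hybridization control scaling 4 of 6 were above 0 (Timm8a1 -0.055 and Timm10b -0.098), beside 28.2% of all genes.

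In the TIM22 complex, the subunit Timm29, named after its values were seen, had 1266, 1028 and 909.9 in dexamethasone cultures 1 to 3, against 775, 782 and 718 in control cultures 1 to 3. Every treated culture was above every control (change 0.48 ± 0.14, adjusted p = 0.0248). The call was lost without replicate 1 (0.37, adjusted p = 0.127) or replicate 2 (0.52, adjusted p = 0.0735) and, without the block, without dexamethasone 1 (0.080 in adjusted p) or any 1 control (adjusted p = 0.0699, 0.0551 and 0.0988 for controls 1 to 3). Timm22, the insertase itself, did not pass (-0.17 ± 0.14, adjusted p = 0.378, 95% interval -0.48 to 0.15), and its other probe set had -0.25 (adjusted p = 0.282).

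In the TIM23 complex, the gate for presequence proteins, 2 of 4 tested genes fell and 0 rose (21.4% and 17.0% of all genes tested). Timm17b, 1 of 2 alternative forms of the channel-forming Tim17 subunit, had 431, 404 and 418 in dexamethasone cultures 1 to 3, against 867, 798 and 922 in control cultures 1 to 3. Every treated culture was well below every control and each group was tight; the differences by replicate number were -1.01, -0.98 and -1.14. The change was -1.04 ± 0.14 (adjusted p = 0.000527), called in all 18 alternative settings. Timm21, which links the complex to TOM and to respiratory chain assembly, had 261, 283 and 415 in dexamethasone cultures 1 to 3, against 512, 467 and 569 in control cultures 1 to 3. Dexamethasone 3 was nearest the controls without reaching them, and the change was -0.72 ± 0.17 (adjusted p = 0.00944). The call was lost without replicate 1 (-0.59, adjusted p = 0.0587) and, without the block, without dexamethasone 1, dexamethasone 2 or control 3 (adjusted p = 0.0544, 0.0523 and 0.0675). Timm17a, the other form of Tim17, had 1617, 1315 and 987 in dexamethasone cultures 1 to 3, against 1152, 1219 and 1444 in control cultures 1 to 3. Its groups overlapped and the estimate was near 0 (0.02 ± 0.19, adjusted p = 0.955, 95% interval -0.41 to 0.44). The presequence receptor Timm50 was likewise near 0 (0.05 ± 0.14, adjusted p = 0.788, 95% interval -0.25 to 0.36).

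In the outer membrane group, 2 of 8 tested genes fell, 0 rose and 6 did not pass. The share called was 25.0%, against 38.4% of all genes tested. Tomm70, the receptor that recognises carriers and other proteins with internal signals, had 445, 761 and 779.7 in dexamethasone cultures 1 to 3, against 866, 1028 and 979.7 in control cultures 1 to 3. Dexamethasone 1 was far below the other treated cultures, which were themselves below all controls, and the change was -0.57 ± 0.16 (adjusted p = 0.0219). The call was lost in 8 of 18 alternatives, among them the fit without the block (-0.57, adjusted p = 0.0553), without replicate 1 (-0.38, adjusted p = 0.116) or 2 (-0.64, adjusted p = 0.0649), without dexamethasone 1 (-0.31, adjusted p = 0.12) and without control 1, 2 or 3 (adjusted p = 0.0836, 0.146 and 0.135). Tomm34, a mostly cytosolic co-chaperone of preproteins and not a subunit of the TOM complex, had 327, 429 and 498 in dexamethasone cultures 1 to 3, against 662, 629.5 and 625 in control cultures 1 to 3. The groups did not overlap, and the change was -0.63 ± 0.17 (adjusted p = 0.0194). Its call was lost without replicate 1 (-0.44, adjusted p = 0.113), replicate 2 (-0.67, adjusted p = 0.0679) or, without the block, control 1 (-0.61, adjusted p = 0.0583).

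No gene tested in the outer membrane group other than Tomm70 and Tomm34 passed the threshold with limma. Tomm40, the pore, had a change of 0.07 ± 0.15 (adjusted p = 0.729, 95% interval -0.26 to 0.41). Tomm20, the presequence receptor, had -0.11 ± 0.12 (adjusted p = 0.505, 95% interval -0.38 to 0.16), and its other probe set -0.25 (adjusted p = 0.262). Tomm22, the central receptor that organises the complex, had -0.13 ± 0.13 (adjusted p = 0.461, 95% interval -0.43 to 0.16). The small subunits Tomm5, Tomm6 and Tomm7 had changes of -0.01, -0.22 and 0.16 and did not pass; Tomm6 was called lower after scaling to the hybridization controls (-0.46, adjusted p = 0.00832) and after quantile normalization (-0.44, adjusted p = 0.00375), and Tomm7 higher with 75th percentile centring (0.29, adjusted p = 0.0455) but below 0 with quantile normalization (-0.039). Timmdc1, a complex I assembly factor whose symbol fits the rule, had 0.02.

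The 8 members below the signal filter were Slc25a14, Slc25a18, Slc25a21, Slc25a27, Slc25a34, Slc25a35, Timm44 and Tomm40l. Slc25a34, an orphan carrier related to the carboxylate group and named after its values were seen, had 169, 167 and 289.8 in dexamethasone cultures 1 to 3, against 14.2, 18.0 and 15.4 in control cultures 1 to 3. It was above background on all 3 treated arrays and on 0 of 3 control arrays, and was at least 3.10-fold higher with dexamethasone (mean log2 of the treated signals against the background level of the control arrays). With no filter on signal, limma called it higher (adjusted p = 0.000813); the fitted value of 3.67 rests on control signals below background and is no bound. Slc25a18, Slc25a21 and Slc25a35 were at background on all 6 arrays. Slc25a27, a brain-type uncoupling protein-like carrier, was above background on 3 control arrays and on 0 treated arrays (68.3, 62.7 and 99.8 in dexamethasone cultures 1 to 3, against 100.3, 128 and 98.3 in control cultures 1 to 3), but the background level was itself higher on the treated arrays and the unfiltered fit did not call it (adjusted p = 0.331). Timm44, which anchors the import motor to TIM23, scattered from 12.1 to 131.5 among treated arrays and from 17.0 to 116.2 among control arrays and was not called without the filter (adjusted p = 0.763). Slc25a14 had 48.4, 38.2 and 64.1 in dexamethasone cultures 1 to 3, against 119.8, 66.7 and 65.2 in control cultures 1 to 3, and was above background on 2 control arrays and 0 treated arrays. Tomm40l, a relative of the pore Tomm40, had 123, 126 and 171 in dexamethasone cultures 1 to 3, against 156, 78.2 and 168 in control cultures 1 to 3, and overlapped between groups. Without the filter, limma called neither gene (adjusted p = 0.252 and 0.813).

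Ratios of related members on the same array are unaffected by a single scaling factor per array, though not by quantile normalization, and 4 such pairs were compared on the deposited signals, chosen with the changes known. The log2 ratio of Timm17b over Timm17a was -1.35, -1.15 and -0.68 on dexamethasone arrays 1 to 3, against 0.15, -0.06 and -0.09 on control arrays 1 to 3, each relative to the control mean. Slc25a5 over Slc25a4 was 0.36, 0.45 and 0.38 with dexamethasone, against 0.01, -0.08 and 0.06 in controls. Slc25a25 over Slc25a23 was 1.90, 2.74 and 1.83 with dexamethasone, against 0.17, -0.44 and 0.27 in controls. In these 3 pairs the groups did not overlap, with mean differences of -1.06, 0.40 and 2.16. The exact two-sided permutation test gave p = 0.1 for each, the smallest value 3 against 3 arrays allow, and an adjusted p of 0.133 over the 4 pairs, so none could pass 0.05. Slc25a13 over Slc25a12 overlapped between groups (difference 0.11, exact permutation p = 0.8).

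**Figure D3:**
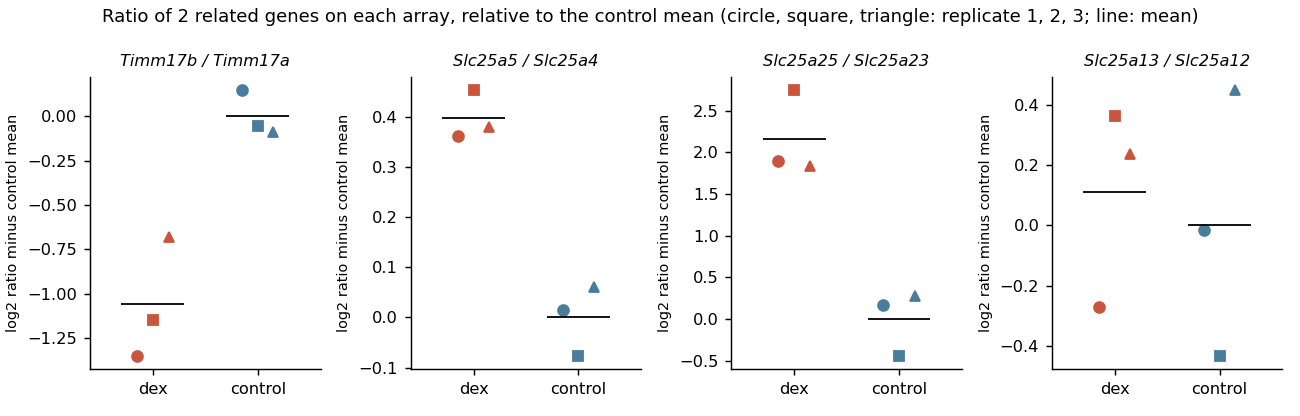
Log2 ratio of 2 related genes on each array minus the control mean (vertical axis), dexamethasone left and control right, with symbols for the replicate number and lines at group means. The Timm17b to Timm17a ratio lies at -1.35 to -0.68 on dexamethasone arrays and the Slc25a25 to Slc25a23 ratio at 1.83 to 2.74, outside the control range, whereas Slc25a13 over Slc25a12 overlaps.

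Other genes of mitochondrial import, processing and transport, whose symbols are outside the rule, were listed from general knowledge. Of 23 tested genes of import, processing and matrix protein handling, 10 rose, 2 fell and 11 did not pass (52.2% called, median 0.11), beside 38.4% called and a median of -0.04 for all genes. The directions depended on scaling, as they did for all genes. With the transport genes of the next paragraph, 14 of 40 were higher and 5 lower as deposited, against 17.0% and 21.4% of all genes. With hybridization control scaling 3 were higher and 9 lower, against 8.84% and 34.5% of all genes. The genes named are the 5 largest called changes each way over both lists. Grpel1, the nucleotide exchange factor of the import motor, averaged 2042 ± 133 with dexamethasone and 1090.4 ± 19.2 in controls (SD, n = 3 each; change 0.90 ± 0.12, adjusted p = 0.000541). Pam16, a regulator of the same motor, had a change of 0.65 ± 0.14 (adjusted p = 0.0063), and Mipep, which trims imported proteins, of 0.63 ± 0.14 (adjusted p = 0.00814). Clpx, the unfoldase of a matrix protease, had 0.81 ± 0.14 (adjusted p = 0.00239). The 2 that fell were the matrix protease Lonp1 (-0.55 ± 0.12, adjusted p = 0.00674) and the chaperone Trap1 (-0.42 ± 0.13, adjusted p = 0.0323). The call of Trap1 was lost without replicate 2 (-0.37, adjusted p = 0.154) or 3 (-0.36, adjusted p = 0.133) and without control 2 or 3 (adjusted p = 0.0746 and 0.0798), and that of Pam16 without replicate 2 (0.58, adjusted p = 0.0544). Trap1 also lost it with 75th percentile centring (-0.30, adjusted p = 0.107) and no intensity trend (adjusted p = 0.0683), and Pam16 and Mipep with hybridization control scaling (0.41, adjusted p = 0.0696; 0.38, adjusted p = 0.0627).

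Of 17 tested genes of other mitochondrial transport proteins, 4 rose, 3 fell and 10 did not pass. The share called was 41.2% (median -0.07), beside 38.4% of all genes tested. Mpc1, a subunit of the pyruvate carrier, averaged 1974 ± 172 with dexamethasone and 1133 ± 83.0 in controls (SD, n = 3 each; change 0.80 ± 0.13, adjusted p = 0.00155). Sfxn3, a sideroflexin, and Micu2, a regulator of the calcium uniporter, had -0.88 ± 0.19 (adjusted p = 0.00789) and -0.87 ± 0.16 (adjusted p = 0.00361). Vdac3, an outer-membrane channel, was at the threshold (-0.30 ± 0.10, adjusted p = 0.0496) and lost its call in 10 of 18 alternatives, among them without replicate 1 or 3 (adjusted p = 0.179 and 0.238), without any 1 dexamethasone array (0.125, 0.074 and 0.0513 for 1 to 3) and without control 1 or 3 (0.113 and 0.202). The call of Sfxn3 was lost without replicate 1 (-0.75, adjusted p = 0.057).

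How arrays are scaled decided part of the balance of directions. With 75th percentile centring 18 members were higher and 4 lower, against 22.4% and 15.8% of all genes, and with quantile normalization 13 and 6, against 18.2% and 18.7%. With scaling to the hybridization controls 6 were higher and 7 lower, against 8.84% and 34.5% of all genes, and no Timm or Tomm gene was higher while 5 were lower. The median of all probe sets was -0.05 with the deposited scaling, 0.08 with 75th percentile centring and -0.29 with hybridization control scaling. The median of the members was 0.19, 0.32 and -0.05 in the same settings. Slc25a22, Slc25a25, Slc25a15, Slc25a29, Slc25a5 and Slc25a17 were called higher, and Timm17b, Slc25a10, Timm21 and Tomm34 lower, under all 4 scalings. The calls of Slc25a20, Slc25a39, Slc25a44, Timm10, Timm29 and Timm8b were lost with hybridization control scaling (changes of 0.12 to 0.39) and that of Tomm70 with 75th percentile centring (-0.45, adjusted p = 0.0542). No called member changed sign.

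**Figure D4:**
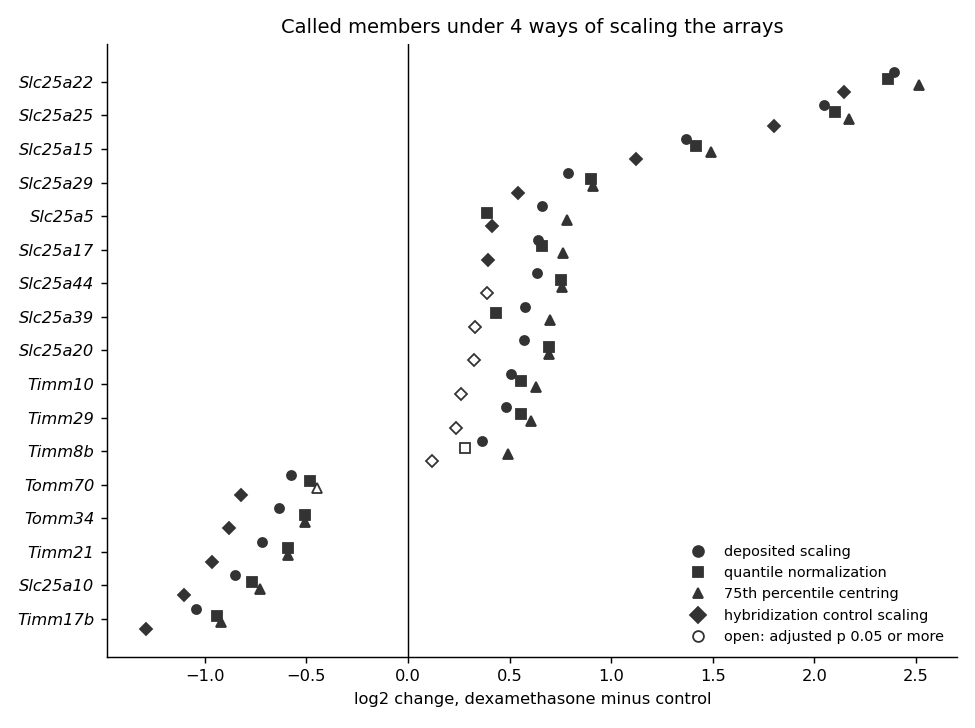
Log2 change, dexamethasone minus control (horizontal axis), of the 17 called members under the deposited scaling and 3 other scalings (symbols), with open symbols where the adjusted p was 0.05 or more. All symbols of a gene lie on the same side of 0, and the open diamonds show the 6 higher calls lost with hybridization control scaling.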

How the data were processed

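Total RNA of 6 AR42J cultures was labelled with biotin and hybridised to Affymetrix Rat 230A arrays. The deposited values are signal intensities on a linear scale, which the authors computed using GCOS and the MAS5 algorithm (per the submitters' processing notes); versions are not given in the sources used here. The trimmed mean intensity is close to 500 on every array of the deposited table. Of 15923 probe sets, 57 are array controls; 12783 carry 1 gene symbol, 312 list several genes and 2771 are unnamed, by the platform's annotation, and 12754 matched a RefSeq gene (GRCr8).

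Signals were not renormalized. Zeros (4 values) were set to 0.1, log2 was taken, and probe sets with a mean log2 signal under the 40th percentile (a signal of 147.6) were left out. limma 3.58.1 (R 4.3.3) was fitted to 9520 probe sets with treatment and replicate number, eBayes with an intensity trend, and Benjamini-Hochberg adjustment over all of them. The replicate number was fitted as a block because the study describes independent pairs of cultures; the labels do not state that equal numbers mark those pairs. The fit was tested on simulated data with far fewer changed probe sets than were called here, so that run does not bear on these calls. P-values refer to these cultures of 1 cell line and do not rest on a gene's own spread alone. limma drew each variance toward that of all probe sets of like intensity. Of 8.78 degrees of freedom (residual plus prior) in the main fit, most came from that prior. The SE of a gene with unlike differences can therefore be smaller than its own cultures alone would give.

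The background level of an array was the highest of 27 Bacillus control probe sets, chosen after the values had been seen. Named with full values were called members changed by at least 0.5 (log2) the same way in all 3 replicate numbers, a list of well-known members whatever their result, and the 5 largest called changes each way outside the rule; further genes are marked where they appear. Members, lists, motifs and related pairs were chosen with earlier results of these data known. Alternatives were other scalings, filters, a pseudocount of 50, no trend, no block, the mean of a gene's probe sets, and leaving out replicates. Fits without a replicate number took their variance mostly from all probe sets together. Their adjusted p is therefore no measure of agreement between the remaining cultures.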

Additional observations from a re-analysis of the deposited data

How the results depend on the processing

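The same replicate numbers occur in both groups. Deviations from the group means correlated at -0.10, 0.11 and 0.21 between arrays with the same number 1, 2 and 3, and at 0.18 between dexamethasone 1 and control 2, so the data do not show that the numbers pair the cultures. Without the replicate block 18 members were called (14 higher, 4 lower) against 17 with it, and 3542 against 3531 probe sets; the call of Tomm70 (adjusted p = 0.0553) was lost and those of Slc25a4 and Timm9 were gained. Leaving out 1 replicate number gave 8 to 17 called members, 7 to 11 carriers, 1 to 6 Timm and Tomm genes and 11 to 16 genes outside the rule. Of all probe sets, 26.0% to 31.7% were called in those fits. Leaving out 1 array gave 11 to 20, 8 to 11, 2 to 9 and 12 to 19, beside 25.9% to 37.1% of all probe sets. Outside the rule 12 genes were called with hybridization control scaling (3 higher, 9 lower) and 11 with no intensity trend, against 19. These are 30.0%, 27.5% and 47.5% of the list, beside 42.4%, 33.4% and 37.1% of all probe sets in the same settings. Of all called probe sets 42.8% were higher, against 57.5% with 75th percentile centring and 19.3% with hybridization control scaling; among called members these shares were 70.6%, 81.8% and 46.2%. Of 17 called members, 6 kept the call in all alternatives and 11 lost it in at least 1; the cause was not tested. No called member changed sign. Among uncalled genes given with values by alternative, sign changes were: with hybridization control scaling Slc25a3 (-0.051), Slc25a33 (-0.013), Timm17a (-0.23), Timm50 (-0.19) and Tomm40 (-0.17), with quantile normalization Slc25a3 (-0.086), and with 75th percentile centring Slc25a11 (0.097), Slc25a23 (0.011) and Tomm20 (0.013). Without 1 replicate number Slc25a1 ranged from -0.49 to 0.029, Slc25a11 from -0.13 to 0.045, Timm17a from -0.22 to 0.30, Timm50 from -0.0099 to 0.14 and Tomm40 from -0.013 to 0.19. Turned values without 1 array were, for Slc25a1, 0.069 (dexamethasone 3), for Slc25a11 0.027 (control 2), for Tomm20 0.024 (dexamethasone 3) and for Tomm40 -0.011 (control 1). For Timm17a they were -0.15 and -0.0027 without dexamethasone 1 or 2 and -0.051 and -0.011 without control 1 or 2, and for Timm50 -0.0023 without dexamethasone 2 and -0.028 without control 3. Of the 10 other tested members, 8 changed sign in at least 1 alternative and 2 (Tomm6 and Tomm7) were called in at least 1; with hybridization control scaling Slc25a30 (-0.091), Slc25a45 (-0.039), Timm10b (-0.098), Timm8a1 (-0.055), Timmdc1 (-0.22) and Tomm7 (-0.084) turned negative, and Tomm5 turned positive with 75th percentile centring (0.11) and quantile normalization (0.047). With 3 arrays a group, and 8 members near or below background, small changes of dim genes could not be measured.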
